A study of Mus musculus with 9 samples.

Results

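Socs1, Socs2, Socs3, Cish and Pim1 are genes that cytokines switch on through the JAK-STAT pathway. They were chosen by name, as every probe set of the array whose annotated symbol was exactly one of these 5. The rule found 7 probe sets for 5 of the 8252 genes named on the array, 1 each for Socs1, Socs2 and Cish and 2 each for Socs3 and Pim1. All 7 passed the filter on low signal described under the processing.

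The cells were CD11b+ spleen cells, sorted from female mice that were 8 to 12 weeks old. CD11b is integrin alpha M, a surface protein of neutrophils, monocytes and macrophages that some lymphocytes also carry. RNA from the cells was measured on 9 Affymetrix MG-U74Av2 arrays, 3 for each of 3 groups. The cultured group came from tumor-bearing mice and spent 24 h in complete medium after the sort, the fresh group came from tumor-bearing mice at time 0, and the tumor-free group came from mice without a tumor. No cultured cells of tumor-free mice were among the samples, so in the comparison of cultured with tumor-free cells the tumor and the culture cannot be told apart. The labels give no strain, no genotype, no name of the tumor and no statement on whether replicates came from separate mice. Each p-value therefore measures the spread between arrays of a group, pooled over the 3 groups, which may be technical. Arrays are named below by group and replicate number, such as fresh 3.

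A cytokine that binds its receptor activates JAK kinases, which phosphorylate STAT transcription factors, and the STATs enter the nucleus and switch on target genes. The SOCS proteins and CIS are among those targets and close a feedback loop. They bind receptor or kinase through an SH2 domain and recruit a ubiquitin ligase through the SOCS box. SOCS1 and SOCS3 also block JAK catalytic activity directly. In myeloid cells SOCS1 is known for restraining interferon gamma and IL-4 signaling, and SOCS3 for restraining IL-6 and G-CSF signaling. CIS, the product of Cish, and SOCS2 bind to receptors that activate STAT5. PIM1 is a serine/threonine kinase that favors survival and growth, whose gene is switched on by STAT3 and STAT5.

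STATs bind palindromes of the form TTCNNNGAA, and interferon regulatory factors bind repeats of GAAA with 2 bases between the copies. The windows from 250 bases before to 50 bases after the annotated start (RefSeq, GRCm38.p6) were searched on both strands for both motifs and for TTC and GAA with 4 bases between them, the wider palindrome preferred by STAT6. N stands for any base. RefSeq windows were at hand for Cish, Socs1, Socs3 and Pim1 (2 windows). Cish held 2 matches to TTCNNNGAA, at bases 1 to 9 and 12 to 20 from the start, and Socs3 held 1, at bases -154 to -146. Of all 32851 windows 8.3% held at least 1 such match and 0.457% held 2 or more. Socs1 held 2 matches to the GAAA repeat, at bases -83 to -74 and -77 to -68, which overlap each other. This motif occurred in 3.44% of all windows. The wider palindrome matched no member window, against 6.95% of all windows. Neither Pim1 window matched any of the 3. A match is a description of the letters, and the arrays do not measure binding. The stretches that hold the matches are shown because the members are read here as cytokine-induced genes. Each runs 5′ to 3′ on the gene's strand for 100 bases, with the matches in capitals. Cish lies at chr9:107296579-107296678 on the plus strand, Socs3 at chr11:117969467-117969566 and Socs1 at chr16:10785559-10785658, both on the minus strand.
Cish: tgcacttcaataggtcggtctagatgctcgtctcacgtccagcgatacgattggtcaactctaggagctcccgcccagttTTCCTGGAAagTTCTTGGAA
Socs3: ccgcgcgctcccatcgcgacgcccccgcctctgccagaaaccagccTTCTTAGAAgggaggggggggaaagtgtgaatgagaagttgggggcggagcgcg
Socs1: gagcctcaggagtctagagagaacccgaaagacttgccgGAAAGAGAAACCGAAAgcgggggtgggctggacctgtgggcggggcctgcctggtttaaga

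The values are MAS5 signals, a linear array intensity scaled by the authors so that every array has the same trimmed mean. Median signals of the 9 arrays ranged between 33.4 and 42.8. In each group 1 array stood apart, namely cultured 3, fresh 3 and tumor-free 1. Their lowest correlations with their own group across tested probe sets were 0.850, 0.874 and 0.823, against 0.929, 0.949 and 0.957 between the remaining arrays of the same group. The mean log2 signal of the bacterial spike-in controls was 9.25 on cultured 3 against 10.49 to 10.50 on the other cultured arrays. It was 8.99 on fresh 3 against 9.86 to 9.91 on the other fresh arrays, and 10.36 on tumor-free 1 against 9.65 to 9.77 on the other tumor-free arrays. The 3'/5' signal ratio of beta-actin, a measure of RNA integrity, was 1.16 to 2.36 in cultured, 1.35 to 1.60 in fresh and 0.994 to 2.57 in tumor-free arrays, highest on tumor-free 1. Arrays at or above the median spike-in signal are called the high class (cultured 1 and 2, fresh 1 and 2, tumor-free 1) and the others the low class. Values within a class rest on 1 or 2 arrays a group, and are given below for the members, not for other genes, where they differ in sign or by more than 1.5 times from those of all arrays.

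Of 14 myeloid markers 13 were on the array, and their summed signal was 33142 to 50403 in cultured, 36709 to 49222 in fresh and 36703 to 45106 in tumor-free arrays. Bright genes such as S100a8 (7642 to 17393) weigh most in this sum, and single markers differed between groups in both directions. Csf3r was at 278 to 491 in cultured, 473 to 530 in fresh and 965 to 1596 in tumor-free arrays. Itgb2 was at 959 to 1969, 796 to 1550 and 309 to 995 in the same order. Genes of the pancreatic acinar cell stood far higher in fresh cells than in the other groups. The summed signal of the 10 acinar markers on the array, of 15 listed, was 587 to 1153 in cultured, 12426 to 20999 in fresh and 593 to 910 in tumor-free arrays. The 6 erythroid markers on the array, of 10, summed to 697 to 6971 in cultured, 4795 to 6433 in fresh and 530 to 2226 in tumor-free arrays. Hba-a1 alone gave 6541 of the 6971, on cultured 3. The 6 B cell markers, of 7, summed to 250 to 602 in cultured and 338 to 392 in fresh arrays, and to 156 on tumor-free 1 against 976 to 1060 on the other tumor-free arrays. The 6 T cell markers, of 7, summed to 84.0 to 179 in cultured, 149 to 206 in fresh and 125 to 229 in tumor-free arrays. Of these, Cd8a and Cd8b1 lay below 7.83, the 20th percentile of all signals, on every array. The 4 NK cell markers, of 7, summed to 128 to 412 in cultured, 86.2 to 168 in fresh and 97.1 to 181 in tumor-free arrays. Gzmb alone gave 341 of the 412, on cultured 3. The part of these cells in the members' values was not tested. In bulk RNA, fewer cells of a type and less RNA per cell cannot be told apart.

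After 24 h of culture Socs3 was lower than in fresh cells on 1 of its 2 probe sets by the test, while the higher values of Socs2 and Socs1 in cultured cells did not pass it. The test was limma's moderated test on log2(signal + 7.83), adjusted by Benjamini-Hochberg over all 8695 probe sets tested. It called 1 of the 7 member probe sets in the comparison of cultured with fresh cells, against 2.69% of all probe sets. The groups did not overlap for 5 of the 7. Of these, 4 were lower in cultured cells, both probe sets of Socs3 and both of Pim1, and 1 was higher, Socs2. Over all probe sets 22.2% did not overlap, 8.81% being lower and 13.4% higher. No member was called in the other comparisons, where 1.90% (fresh over tumor-free) and 1.23% (cultured over tumor-free) of probe sets were called. Groups did not overlap for 3 member probe sets in fresh over tumor-free cells, 1 of Socs3 and both of Pim1. All were higher, against 22.4% of all probe sets not overlapping, 9.34% higher and 13.1% lower. In cultured over tumor-free cells 1 was higher and 1 lower, against 18.5% of all probe sets, 10.3% higher and 8.20% lower. An unadjusted p below 0.05 was reached by 5, 1 and 2 of the 7 in cultured over fresh, fresh over tumor-free and cultured over tumor-free cells, against 16.3%, 16.7% and 14.1% of all probe sets. The 3 comparisons share arrays pairwise and are not independent of one another. The members were chosen with earlier results of these data known, so their counts beside those of all probe sets are descriptions.

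**Figure D1:**
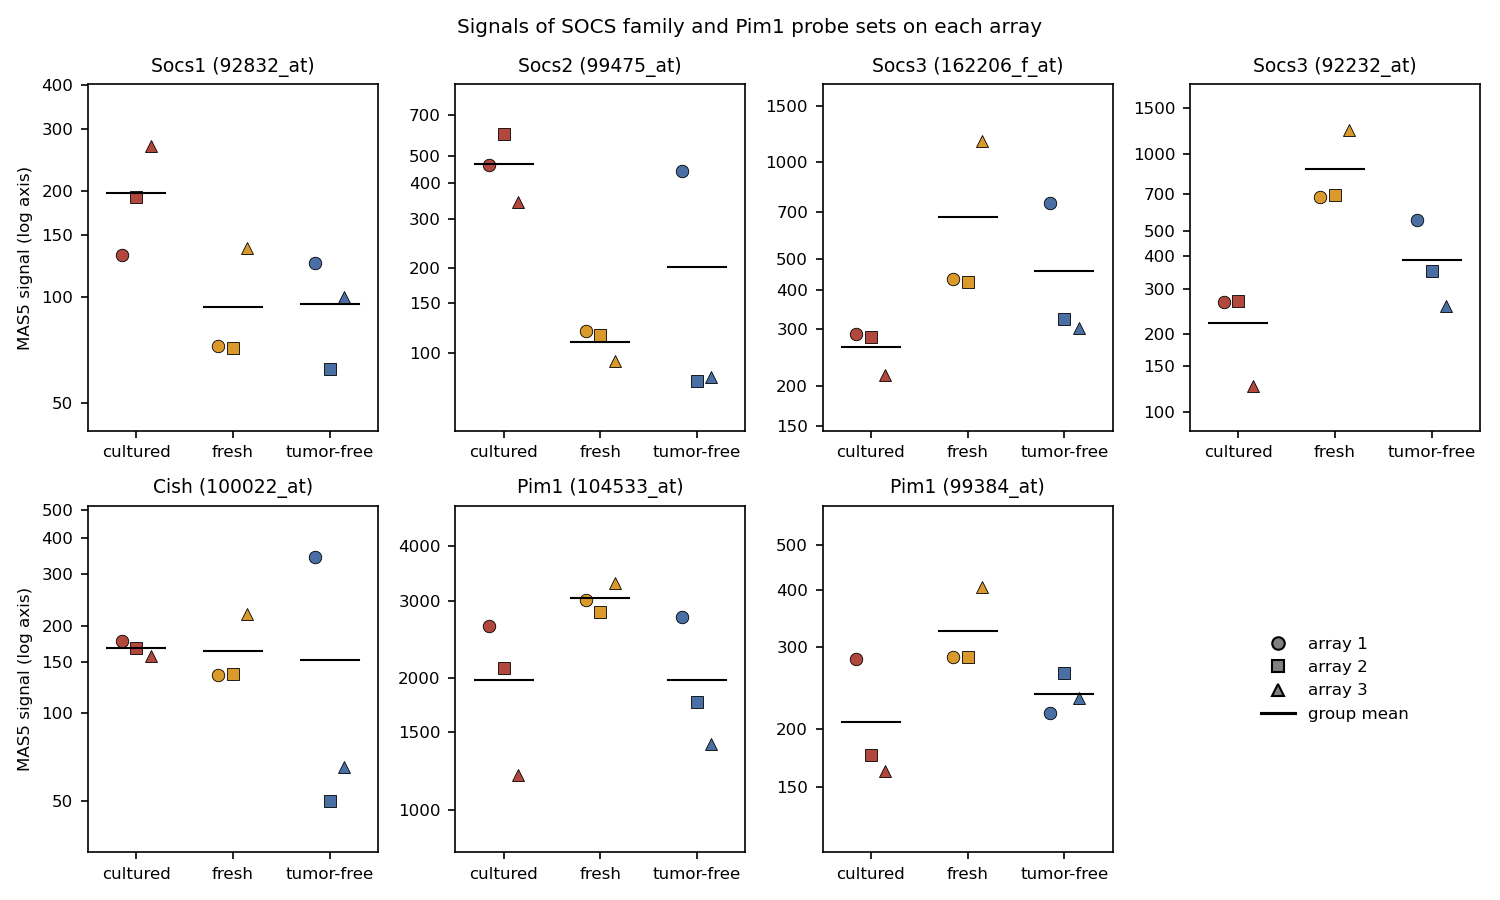
MAS5 signal (log axis) of the 7 member probe sets on each of the 9 arrays, cultured on the left, fresh in the middle and tumor-free on the right, with the symbol showing the array number and the line the group mean (n = 3). The group mean of Socs3 was lowest in cultured cells on both probe sets. On 92232_at tumor-free 3 (257) lay below cultured 1 (266) and cultured 2 (269). Socs2 and Cish had 1 tumor-free array, tumor-free 1, at 442 and 343 where the other tumor-free arrays lay at 50.1 to 82.5.

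Socs3, the inhibitor of IL-6 and G-CSF receptor signaling, had signals of 266, 269 and 126 in cultured cells on probe set 92232_at, against 683, 694 and 1239 in fresh cells and 553, 351 and 257 in tumor-free cells. Every cultured value lay below every fresh value, and fresh 3 was the highest of the 9 arrays. The group means were 220 ± 81.5 in cultured, 872 ± 318 in fresh and 387 ± 151 in tumor-free cells (SD, n = 3 each). Socs3 fell by 1.97 ± 0.39 on the log2 scale in cultured relative to fresh cells (SE, 95% interval -2.82 to -1.11, limma adjusted p = 0.0222). The call was lost without fresh 1, fresh 2, fresh 3 or cultured 2 (adjusted p = 0.0618 to 0.0728), with a log2 change between -2.14 and -1.62 over all 9 single arrays left out. In the high class it was -1.34 and in the low class -3.22. The acinar markers were also highest in the fresh group and, within it, lowest on fresh 3. Their part in the difference was not tested. In fresh over tumor-free cells the groups also did not overlap on this probe set, and the log2 fold change was 1.17 ± 0.39 (95% interval 0.32 to 2.02, adjusted p = 0.159). That comparison was called without tumor-free 1 (1.46, adjusted p = 0.0465), and the value was 0.31 in the high class and 2.02 in the low class. Cultured over tumor-free cells gave -0.80 ± 0.39 (95% interval -1.65 to 0.05, adjusted p = 0.395), with overlapping groups, and -1.20 in the low class. The order of the levels was thus fresh, tumor-free, cultured, and of its neighbors neither fresh and tumor-free nor tumor-free and cultured passed the test.

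The second Socs3 probe set, 162206_f_at, carries the suffix that Affymetrix gave to probe sets shared by similar sequences. Its signals were 291, 285 and 217 in cultured cells, 433, 423 and 1168 in fresh cells and 745, 324 and 304 in tumor-free cells. Cultured values lay below every fresh and every tumor-free value, while fresh and tumor-free values overlapped, with fresh 3 and tumor-free 1 far above the rest of their groups. The log2 fold change of cultured over fresh cells was -1.17 ± 0.44 (95% interval -2.14 to -0.20, adjusted p = 0.205). It had the same sign as on the first probe set but did not pass the test, and it was -0.69 without fresh 3, -0.56 in the high class and -2.39 in the low class. Fresh over tumor-free cells gave 0.51 ± 0.44 (adjusted p = 0.574), 1.87 in the low class but -0.79 in the high class. Cultured over tumor-free cells gave -0.66 ± 0.44 (adjusted p = 0.544), -1.35 in the high class. Across the 9 arrays both Socs3 probe sets correlated at r = 0.885 on the log2 scale.

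Socs1, the inhibitor of interferon gamma and IL-4 signaling, was at its highest values in cultured cells. Its signals were 132, 193 and 268 in cultured cells, 72.5, 71.5 and 138 in fresh cells and 125, 62.5 and 100 in tumor-free cells. The lowest cultured value lay below fresh 3 but above all tumor-free values. The log2 fold change was 1.02 ± 0.36 in cultured over fresh cells (95% interval 0.22 to 1.82, adjusted p = 0.182) and 0.98 ± 0.36 in cultured over tumor-free cells (95% interval 0.18 to 1.78, adjusted p = 0.247). In the high class the second of these was 0.33 and in the low class 1.66. Fresh over tumor-free cells differed by -0.04 ± 0.36 (95% interval -0.84 to 0.76, adjusted p = 0.965), and was -0.74 in the high class and 0.75 in the low class. None of the 3 passed the test, so the levels of Socs1 could not be ordered beyond the spread of the arrays.

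Socs2, which acts on growth hormone and other STAT5-activating receptors, was at higher values in all cultured than in all fresh arrays. Its signals were 466, 598 and 342 in cultured cells, against 119, 116 and 94.0 in fresh cells, and 442, 79.4 and 82.5 in tumor-free cells. Tumor-free 1 lay within the range of the cultured cells and the other tumor-free arrays lay below the fresh cells. Within the cultured and fresh groups no array reached into the range of the other. The group means were 469 ± 128 in cultured, 110 ± 13.8 in fresh and 201 ± 209 in tumor-free cells (SD, n = 3 each). The log2 fold change of cultured over fresh cells was 1.99 ± 0.54 (95% interval 0.80 to 3.17, adjusted p = 0.0809), which missed the threshold. The same difference was called when tumor-free 1, no part of this comparison, left the shared estimate of the spread (adjusted p = 0.00184), and when only the 6 cultured and fresh arrays were fitted (adjusted p = 0.00579). Blocking on the spike-in class gave an adjusted p of 0.0154, and the value was 2.09 in the high class and 1.78 in the low class. Leaving out any single array other than tumor-free 1 did not give a call. The limma adjusted p was then 0.0754 to 0.274, highest without cultured 2, and it was 0.115 with median centring. Cultured over tumor-free cells gave 1.61 ± 0.54 (95% interval 0.42 to 2.79, adjusted p = 0.197), and 2.39 (adjusted p = 0.00108) without tumor-free 1. In the high class it was 0.25. Fresh over tumor-free cells gave -0.38 ± 0.54 (95% interval -1.57 to 0.81, adjusted p = 0.744), but 0.40 without tumor-free 1, -1.84 in the high class and 0.20 in the low class.

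Cish, the receptor-binding inhibitor of STAT5 signaling, was near the same level in cultured and fresh cells. Its signals were 177, 168 and 158 in cultured cells, 135, 136 and 220 in fresh cells, and 343, 50.1 and 65.6 in tumor-free cells. The cultured values lay within the range of the fresh ones. Tumor-free 1 was the highest of all 9 arrays and the other tumor-free arrays were the lowest. The log2 fold change of cultured over fresh cells was 0.07 ± 0.55 (95% interval -1.16 to 1.29, adjusted p = 0.975), an interval that includes a difference of more than 1 in either direction, and it was 0.33 in the high class and -0.46 in the low class. Fresh over tumor-free cells gave 0.55 ± 0.55 (adjusted p = 0.633) and cultured over tumor-free cells 0.62 ± 0.55 (adjusted p = 0.669). These values rested on tumor-free 1. Without it, limma called both comparisons, at 1.36 (adjusted p = 0.0176) and 1.43 (adjusted p = 0.0161), while in the high class, where tumor-free 1 is the only tumor-free array, they were -1.29 and -0.96, and in the low class 1.81 and 1.35. The B cell markers, the spike-in signal and the beta-actin ratio of tumor-free 1 also lay outside the range of the other tumor-free arrays, and their part in its Cish and Socs2 values was not tested.

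**Figure D2:**
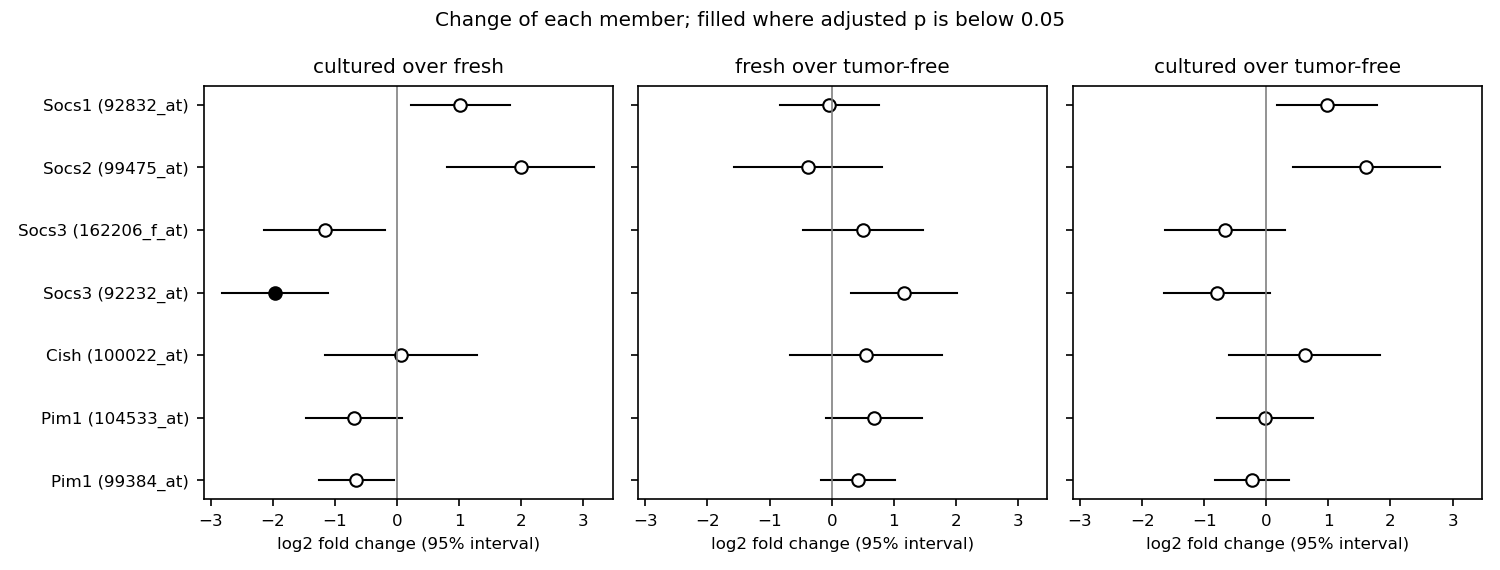
Log2 fold change of each member probe set (x axis, log2 scale) with its 95% interval from limma, in 1 panel per comparison, with a filled point where the adjusted p was below 0.05. The single filled point is Socs3 (92232_at) in cultured over fresh cells at -1.97, and the interval of Socs2 in the same panel runs from 0.80 to 3.17.

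Pim1, the kinase among the members, was at the highest values in fresh cells on both of its probe sets. On 104533_at its signals were 2622, 2100 and 1197 in cultured cells, 3017, 2832 and 3288 in fresh cells and 2748, 1757 and 1409 in tumor-free cells. This probe set was among the brightest on the array, between the 97.9th and 99.5th percentile of each array's signals. Every fresh value lay above every cultured and every tumor-free value, whose ranges overlapped. The log2 fold change was -0.70 ± 0.35 in cultured over fresh cells (95% interval -1.47 to 0.08, adjusted p = 0.362) and 0.68 ± 0.35 in fresh over tumor-free cells (95% interval -0.09 to 1.45, adjusted p = 0.347). In the high class these were -0.32 and 0.09, and in the low class -1.45 and 1.06. Cultured and tumor-free cells differed by -0.01 ± 0.35 (95% interval -0.79 to 0.76, adjusted p = 0.992), a value that turned to 0.25 without tumor-free 1 and to 0.31 without cultured 3. It was -0.23 in the high class and -0.39 in the low class.

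On the other Pim1 probe set, 99384_at, the signals were 283, 175 and 162 in cultured cells, 286, 285 and 404 in fresh cells and 216, 264 and 233 in tumor-free cells. Again all fresh values lay above all others, though cultured 1 came close to the lowest of them. The log2 fold changes of -0.66 ± 0.27 in cultured over fresh cells (adjusted p = 0.251) and 0.43 ± 0.27 in fresh over tumor-free cells (adjusted p = 0.440) did not pass the test. They had the signs of the other probe set, and were -0.35 and 0.39 in the high class and -1.28 and 0.69 in the low class. Cultured over tumor-free cells gave -0.23 ± 0.27 (adjusted p = 0.758), with 0.04 in the high class and -0.59 in the low class. The 2 Pim1 probe sets correlated at r = 0.699 over the 9 arrays. Fresh cells did not overlap with cultured cells on any of the 4 probe sets of Pim1 and Socs3. All fresh values also lay above all tumor-free values on both Pim1 probe sets and on Socs3 92232_at, but not on Socs3 162206_f_at. On the log2 scale the r between Socs3 (92232_at) and Pim1 was 0.860 (104533_at) and 0.811 (99384_at). These are descriptions over 9 arrays that share groups, with no test.

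**Figure D3:**
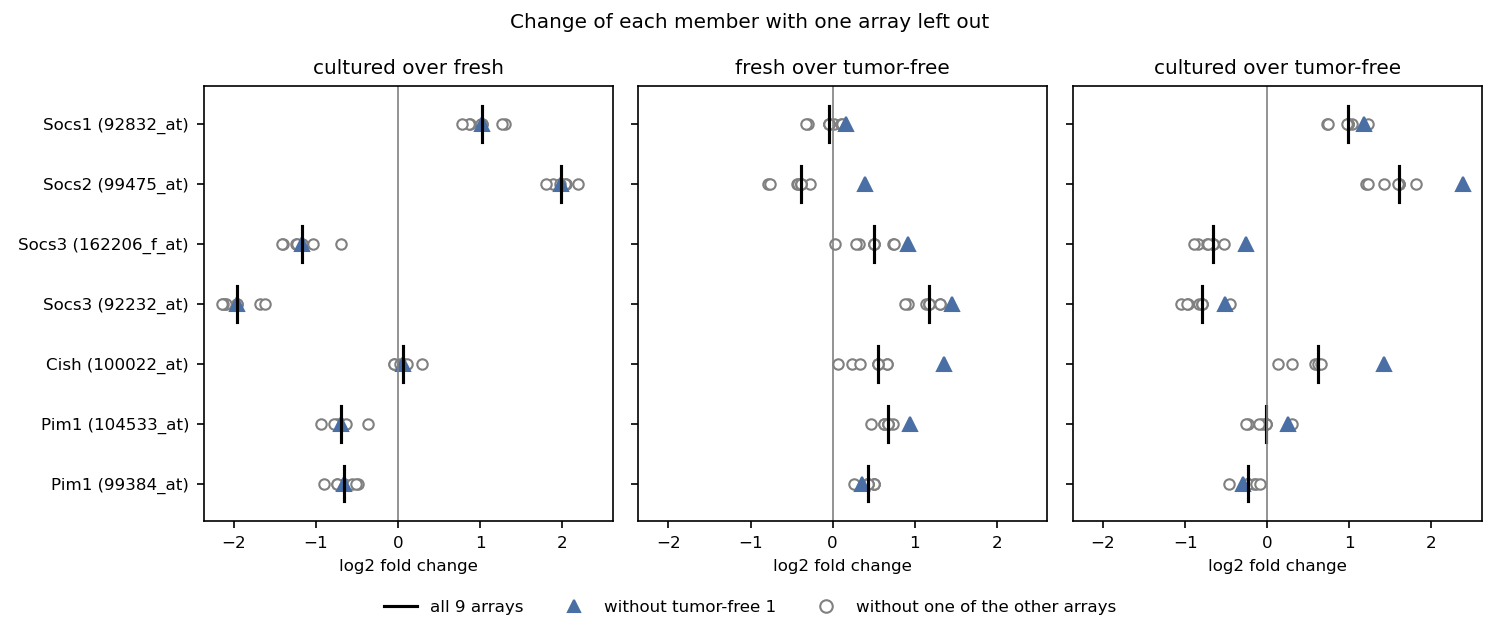
Log2 fold change of each member probe set (x axis, log2 scale) over all 9 arrays (line), without tumor-free 1 (triangle) and without each other array (circles), in 1 panel per comparison. Leaving out tumor-free 1 moved Cish to 1.36 and Socs2 to 0.40 in fresh over tumor-free cells, while the values for Socs3 (92232_at) in cultured over fresh cells stayed between -2.14 and -1.62.

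Fresh 1 and fresh 2 gave nearly the same member values, such as 72.5 and 71.5 for Socs1, 683 and 694 for Socs3 (92232_at), 135 and 136 for Cish and 286 and 285 for Pim1 (99384_at). Fresh 3 lay above both for every member probe set except Socs2, where it lay below. With the 2 most similar arrays of a group averaged into 1 value, an alternative chosen after the data were seen, limma called no member in any comparison, and Socs3 (92232_at) in cultured over fresh cells was -2.28 (adjusted p = 0.186).

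The gene patterns most like each member were ranked by Pearson r of log2 values over all 9 arrays, among 6370 other genes. For Socs2 these were Mitf, a transcription factor of melanocytes, macrophages and osteoclasts (r = 0.977), Yipf5 (0.970) and Adam9, a membrane metalloproteinase (0.965). Mitf had signals of 201, 223 and 241 in cultured cells, 60.4, 60.0 and 48.6 in fresh cells and 213, 43.3 and 48.9 in tumor-free cells, and so shared with Socs2 the high cultured values and the high tumor-free 1. For Socs3 (162206_f_at) they were Slc20a1, a phosphate transporter (0.979), Tpbg (0.950) and Tanc1 (0.944). For Cish they were Sertad1 (0.967), Pdpn, the surface glycoprotein podoplanin (0.931), and Phlda1 (0.922). Phlda1 stood at 797 on tumor-free 1 against 24.8 and 18.7 on the other tumor-free arrays. For Socs1 they were Msmo1, an enzyme of cholesterol synthesis (0.932), Fndc3a (0.909) and Fcf1 (0.905), and for Pim1 (104533_at) Map3k11, a kinase (0.935), Cebpb, a transcription factor of myeloid cells (0.932), and Klf9 (0.923). These correlations have no test and reflect arrays that stand apart as well as groups.

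Other genes of the pathway were read from 7 lists of 120 genes in all, of which 87 had a tested probe set. The lists were chosen with earlier results of these data known. The counts below therefore cannot show whether the pathway changed more often than other genes. In cultured over fresh cells 5 of them rose and 3 fell, against 1.41% and 1.10% of all 6371 genes tested. In fresh over tumor-free cells 3 rose and 4 fell, against 0.879% and 1.07%, and in cultured over tumor-free cells 4 rose and 3 fell, against 0.487% and 0.769%. With single arrays left out, the called list genes numbered 5 to 12, 0 to 19 and 2 to 17 in these comparisons. The count of fresh over tumor-free cells was 0 without fresh 1 or fresh 2, 2 without tumor-free 2 or 3, 11 without cultured 3 and 19 without tumor-free 1. That of cultured over tumor-free cells was 17 without tumor-free 1, 4 without fresh 1, 3 without cultured 1, and 2 without cultured 2, tumor-free 2 or tumor-free 3. For cultured over fresh cells it was 5 without fresh 1 or fresh 2. The medians of the 87 log2 fold changes were 0.02, 0.10 and 0.06 in these comparisons, against 0.02, -0.01 and 0.03 over all genes.

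Among the ligands, cytokines that start the cascade, 14 of 28 were tested. In cultured over fresh cells Il12a, a subunit of IL-12, rose by 4.47 ± 0.45 (adjusted p = 0.000759), with signals of 748, 396 and 362 in cultured cells against 5.30, 10.5 and 35.0 in fresh cells. Il10, an anti-inflammatory cytokine that signals through STAT3, fell by 2.56 ± 0.53 (adjusted p = 0.0272), and Csf3, which encodes G-CSF, fell by 1.72 ± 0.37 (adjusted p = 0.0356). Il10 signals were 5.44, 6.98 and 41.0 in cultured cells, 111, 107 and 137 in fresh cells and 3.50, 19.6 and 3.10 in tumor-free cells. The fresh values lay above all others. In fresh over tumor-free cells Il10 rose by 3.06 ± 0.53 (adjusted p = 0.0150) and Csf3 by 1.75 ± 0.37 (adjusted p = 0.0413), and no ligand fell. The pancreatic acinar markers, at a summed 12426 to 20999 in fresh arrays, were also highest in that group, and their part in the values of Il10, Csf3 and Lifr was not tested. Il12a was the only ligand called in cultured over tumor-free cells (5.42). Leaving out single arrays cost Il10 its call in 5 of 9 cases for cultured over fresh and 3 of 9 for fresh over tumor-free cells, and Csf3 in 6 of 9 for each.

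Of 35 receptor genes 26 were tested. Lifr, which encodes the receptor of leukemia inhibitory factor, fell by 2.03 ± 0.35 in cultured over fresh cells (adjusted p = 0.0131) and rose by 1.86 ± 0.35 in fresh over tumor-free cells (adjusted p = 0.0246). Its signals were 47.2, 50.4 and 21.1 in cultured cells, 174, 159 and 201 in fresh cells and 68.0, 35.7 and 32.3 in tumor-free cells. Of 3 further Lifr probe sets, 2 were called in the same directions in both comparisons (-3.20 and -2.59, 3.59 and 2.66) and the third had the same signs (-0.90 and 1.10). Csf3r, which encodes the G-CSF receptor that SOCS3 binds, fell by 1.31 ± 0.28 in fresh over tumor-free cells (adjusted p = 0.0413) and by 1.79 ± 0.28 in cultured over tumor-free cells (adjusted p = 0.0133). Its other 2 probe sets gave values from -1.82 to -0.08 in these comparisons and were not called. The call of Csf3r was lost in 7 of 9 cases when a single array was left out of fresh over tumor-free cells, and in 4 of 9 for cultured over tumor-free cells. Lifr lost its call in 2 of 9 cases for cultured over fresh cells and in 5 of 9 for fresh over tumor-free cells.

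No JAK kinase (4 of 4 tested) and no gene of the STAT list (6 of 8 tested) passed limma's test in any comparison, and an unadjusted p below 0.05 was reached by at most 1 gene of each list per comparison. For the JAK kinases the values furthest from 0 were 0.36 ± 0.40 for Tyk2 in cultured over fresh cells and 0.75 ± 0.27 for Jak2 in fresh over tumor-free cells (adjusted p = 0.726 and 0.189). A further Jak2 probe set gave 0.04 ± 0.42 in fresh over tumor-free cells. For the STAT list the values furthest from 0 were 1.20 ± 0.54 for Stat5b in cultured over fresh cells and -0.81 ± 0.32 for Irf9, an interferon regulatory factor, in fresh over tumor-free cells (adjusted p = 0.299 and 0.230). Stat4 was at 1.13 ± 0.37 in cultured over tumor-free cells (adjusted p = 0.187). The other Pim kinases, Pim2 and Pim3, did not pass it either. In fresh over tumor-free cells they were at 0.57 ± 0.28 and 1.08 ± 0.60 (adjusted p = 0.327 and 0.380), and in cultured over fresh cells at -0.72 ± 0.28 and -0.13 ± 0.60 (adjusted p = 0.225 and 0.950), the signs of Pim1.

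Among 10 tested genes of 15 other inhibitors, Usp18 was the only one called. It encodes a protease that removes ISG15 from proteins and also blocks the type I interferon receptor. The gene rose by 3.78 ± 0.60 in cultured over fresh cells (adjusted p = 0.00866) and fell by 3.45 ± 0.60 in fresh over tumor-free cells (adjusted p = 0.0162). Its signals were 56.4, 122 and 473 in cultured cells, 2.09, 3.70 and 5.59 in fresh cells and 185, 98.8 and 88.7 in tumor-free cells. The second call was lost in 3 of 9 cases with an array left out. The fresh signals lay below the offset of 7.83, so the size of these changes depends on it. Socs5, the only other SOCS gene of the list on the array, gave 0.03 in cultured over fresh cells, with signals of 121, 94.8 and 65.5 in cultured cells and 79.5, 124 and 71.3 in fresh cells.

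Of 30 genes listed as known targets of STAT factors 26 were tested. In cultured over fresh cells 3 rose and none fell, although 11 reached an unadjusted p below 0.05, as did 16.9% of all genes tested. Arg1, which encodes arginase and is a target of STAT6 in macrophages, rose by 6.76 ± 0.70 (adjusted p = 0.000857). Irf1, which encodes an interferon regulatory factor, rose by 2.43 ± 0.26 (adjusted p = 0.000857). Tap1, a peptide transporter gene induced by interferon gamma, rose by 2.23 ± 0.31 (adjusted p = 0.00452), with a further Tap1 probe set at -0.39 that was not called. These 3 calls held whichever array was left out, with an adjusted p of at most 0.0319. In fresh over tumor-free cells Cebpd, a transcription factor of the acute phase response, fell by 1.87 ± 0.30 (adjusted p = 0.00897), and Ccnd1, which encodes cyclin D1, fell by 1.60 ± 0.32 (adjusted p = 0.0304). A further Ccnd1 probe set gave 0.30. With single arrays left out Cebpd lost its call in 2 of 9 cases and Ccnd1 in 5 of 9. In cultured over tumor-free cells Arg1 (5.60), Tap1 (1.66) and Irf1 (1.34) rose, and Junb (-2.47), an AP-1 factor, and Ccnd1 (-1.88) fell. Of these Arg1 kept its call whichever array was left out, and the others lost theirs in 4 to 6 of 9 cases. The median of the 26 was -0.25 in cultured over fresh, 0.10 in fresh over tumor-free and -0.03 in cultured over tumor-free cells.

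**Figure D4:**
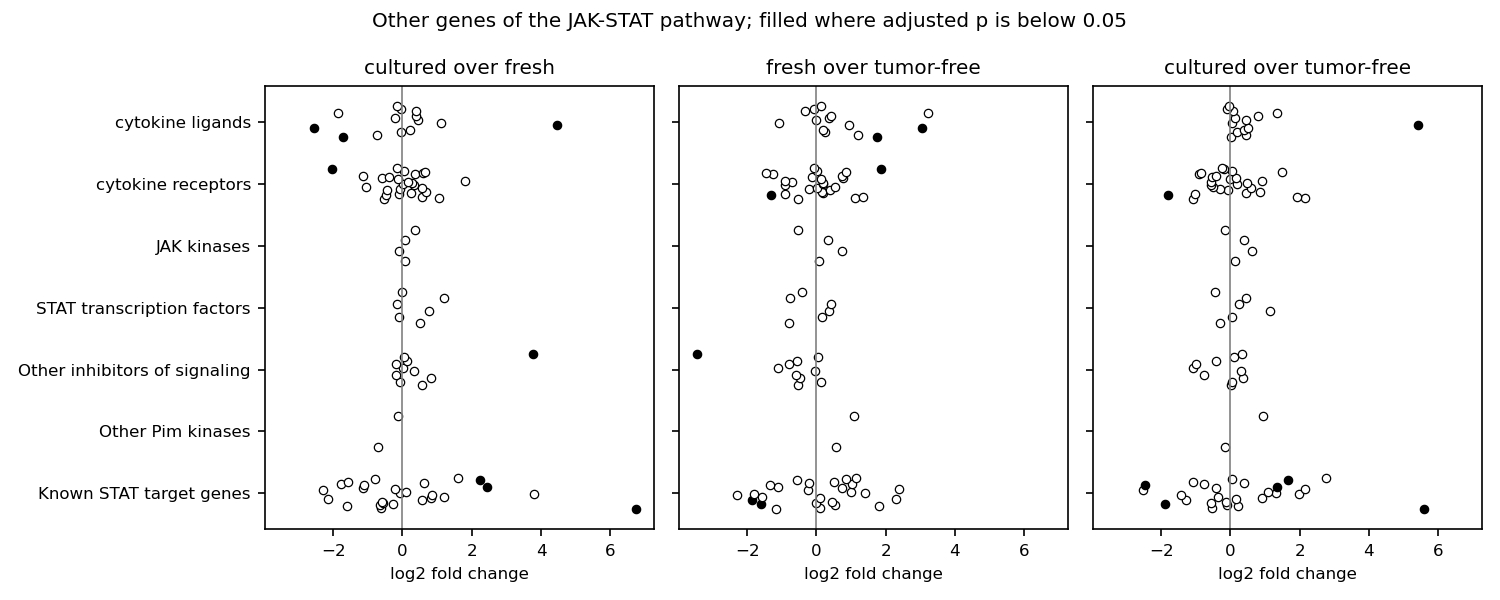
Log2 fold change (x axis, log2 scale) of the 87 tested genes of the 7 pathway lists, 1 point per gene, in 1 panel per comparison, filled where the adjusted p was below 0.05. The JAK kinases lay between -0.52 and 0.75 and had no filled point, while Il12a (4.47), Usp18 (3.78) and Arg1 (6.76) stood to the right in cultured over fresh cells.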

How the data were processed

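RNA of 9 samples, 3 a group, was measured on 1-colour Affymetrix arrays. The deposited values are linear signal intensities made by the authors with MAS5 and scaled to a common trimmed mean, per the submitters' processing notes and the values themselves. The MAS5 version is not given in the sources used here, and no detection calls were used, so no signal can be called present or absent. The number of arrays limits the precision.

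Of 12488 probe sets, 66 controls were set aside and the 30% with the lowest mean were removed, which left 8695. With the 20th percentile of all signals (7.83) as offset, log2(signal + 7.83) was fitted with limma 3.58.1 in R 4.3.3, with 3 group means over all 9 arrays, 6 residual degrees of freedom, a variance trend and Benjamini-Hochberg adjustment at 0.05. A fold change on this scale understates the change of dim probe sets. The procedure was tested on simulated data. Symbols came from the platform annotation, in which 10855 probe sets had 1 symbol, 396 several and 1237 none.

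A gene of the pathway lists took its values from the probe set that was brightest on average. Of each list the text names up to 4 called genes with the largest change in a comparison, or else up to 2 uncalled ones, and for each member the 3 genes with the highest correlation. Irf1 in cultured over tumor-free cells and Socs5 fall outside this rule and were named after their values were seen. The members and lists were chosen with earlier results of these data known. Alternatives changed the scaling, offset, filter, variance trend, arrays fitted and blocks.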

Additional observations from a re-analysis of the deposited data

How the results depend on the processing

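With 3 arrays a group, 1 of which stood apart in each, the calls depended on single arrays. Of 504 alternative values for the 7 member probe sets, 444 kept their direction and side of the threshold, 33 newly passed it, 5 no longer passed it and 22 changed sign, and the cause was not tested. Only Socs3 (92232_at) in cultured over fresh cells had a call to lose, so all 5 losses were its own. It lost the call in 4 of 9 cases with 1 array left out, and with the closest arrays averaged. The 444 are thus mostly values that stayed uncalled. No scaling moved the median of all probe sets by more than 0.069 on the log2 scale. Fits inside a class had 2 (high) or 1 (low) degrees of freedom for the spread, and where a group had a single array its spread was taken to equal that of the others. The settings with the closest 2 arrays were chosen after seeing the data; averaging them left 3 residual degrees of freedom. Same-numbered arrays deviated from their group means with r from -0.20 to 0.26. Because 1 array stood apart in each group, these values cannot show whether the numbers pair the samples. With the replicate number as a block, limma called 258, 200 and 144 probe sets in cultured over fresh, fresh over tumor-free and cultured over tumor-free cells, against 234, 165 and 107 without it, and Socs3 (92232_at) in cultured over fresh cells was -1.97 (adjusted p = 0.0277). The block changed no member's call.

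Below, values for the 3 comparisons are in that order. The probe sets called were 556, 277 and 177 with the spike-in class as a term, 1049, 411 and 444 in the high class alone, 1393, 1967 and 1725 in the low class alone, 21, 21 and 0 with the closest arrays averaged and 1368, 2141 and 1813 with these arrays alone. Leaving out 1 array gave 74 to 489, 62 to 624 and 21 to 529, the highest of each without tumor-free 1. Fitting only the groups compared gave 14 for cultured over tumor-free cells. Member probe sets called were 3, 2 and 2 in the high class, 5, 5 and 4 in the low class, 4, 3 and 2 with the closest arrays alone, and 0 to 2 with 1 array left out. For cultured over fresh cells they were 2 with only these groups, 2 with the class as a term and 0 with the closest arrays averaged. Counted by 1 probe set a gene, where none was called over all arrays, they were 2, 2 and 1 in the high class, 3, 3 and 3 in the low class, 3, 2 and 2 with the closest arrays alone, and 0 to 1, 0 to 1 and 0 to 2 with 1 array left out. For cultured over fresh cells 1 gene was called with only these groups and 1 with the class as a term.

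In cultured over fresh cells, values that crossed the threshold or changed sign were as follows. Socs1 was 1.07 in the high class and 1.07 with the closest arrays alone. Socs2 was 1.99 with only these groups, 1.99 with the class as a term, 2.09 in the high class, 1.78 in the low class, 2.09 with the closest arrays alone and 1.80 to 2.19 with 1 array left out. Socs3 was -2.39 in the low class and -0.56 with the closest arrays alone on 162206_f_at, and on 92232_at -2.28 with the closest arrays averaged and -2.14 to -1.62 with 1 array left out. Cish was -0.005 with median centring, -0.46 in the low class, -0.067 with the closest arrays averaged and -0.049 to 0.286 with 1 array left out. In the low class Pim1 was -1.45 (104533_at) and -1.28 (99384_at).

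In fresh over tumor-free cells, Socs1 was 0.071 with the class as a term, 0.745 in the low class, 0.005 with the closest arrays averaged and -0.33 to 0.164 with 1 array left out. Socs2 was -1.84 in the high class, 0.198 in the low class, 0.501 with the closest arrays alone and -0.783 to 0.40 with 1 array left out. Socs3 was -0.79 in the high class and 1.87 in the low class on 162206_f_at, and on 92232_at 2.015 in the low class, 1.175 with the closest arrays alone and 0.887 to 1.455 with 1 array left out. Cish was -1.29 in the high class, 1.805 in the low class, 1.14 with the closest arrays alone and 0.061 to 1.362 with 1 array left out. Pim1 was 1.06 in the low class and 0.89 with the closest arrays alone on 104533_at, and 0.689 in the low class on 99384_at.

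In cultured over tumor-free cells, Socs1 was 1.66 in the low class. Socs2 was 1.98 in the low class, 2.59 with the closest arrays alone and 1.206 to 2.389 with 1 array left out. Socs3 was -1.35 in the high class on 162206_f_at, and -1.03 in the high and -1.20 in the low class on 92232_at. Cish was -0.96 in the high class, 1.345 in the low class, 1.47 with the closest arrays alone and 0.126 to 1.427 with 1 array left out. Pim1 was 0.574 with the closest arrays alone and -0.256 to 0.307 with 1 array left out on 104533_at, and 0.044 in the high class on 99384_at.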
